A study of Mus musculus with 6 samples.

Results

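A set of 10 transcription factors known from valve mesenchyme, all found by symbol among the 46983 genes of the RPKM table, was followed from neonatal to adult aortic valves: Sox9, Twist1, Twist2, Msx1, Msx2, Snai1, Snai2, Nfatc1, Tbx20 and Scx. RPKM is a read count divided by exonic length and by the total reads of the library, so levels can be compared between genes. Aortic valves came from wild type C57BL/6J mice at postnatal day 2 (PND2, pups) or at 4 months (adults), with no treatment named at either age and with the sex of the mice not given in the sources used here. Each age has 3 libraries labelled as biological replicates, each made from the valves of 5 to 6 pooled mice. The totals by which the libraries were scaled, inferred here from the RPKM that 1 read is worth, were 38994657, 30518001 and 29260736 at PND2 and 37350916, 23810507 and 28943701 at 4 months.

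Valve leaflets arise from the endocardial cushions, where endothelial cells lining the heart loosen their junctions, change into mesenchymal cells and move into a matrix-rich jelly. Snail and Twist factors repress epithelial genes in that transition, Msx factors act with BMP signals, and Nfatc1 is made by the endocardial cells that stay at the surface. After the cushions form, Sox9 and Scx direct cartilage-type and tendon-type matrix genes in the maturing leaflet, and Tbx20 acts in cushion mesenchyme, endocardium and heart muscle.

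All 10 factors passed the filter on low values, an RPKM of at least 0.1 in at least 3 libraries. By limma on log2(RPKM + 0.1), with Benjamini-Hochberg adjustment over 25903 genes and a threshold of 0.05, Snai2, Tbx20, Scx and Nfatc1 were lower at 4 months and the other 6 factors did not pass. The 4 lower calls are 40% of the factors, beside 21.1% of all genes tested that were called lower and 35.8% called in either direction. No factor was called higher, beside 14.7% of all genes and 8.72% that rose more than 2-fold, and none was higher at an unadjusted p under 0.05. Voom on recovered reads gave 4 lower factors and 0 higher. The per-gene unequal-variance test gave 1 lower, Snai2, and 0 higher. Of the 10 factors, 2 were called lower with a fall of more than 2-fold, against 8.47% of all genes tested. The median log2 fold change was −0.37 over the 10 factors and −0.14 over all genes. Scaling each library to its median moved that all-gene median to −0.02 and put Twist1 past the threshold as higher.

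Promoter sequence from RefSeq (GRCm38.p6) matched 6 of the 10 factors: Twist1, Twist2, Msx1, Msx2, Snai1 and Tbx20. No promoter is shown for Sox9, Snai2, Nfatc1 or Scx. The 250 bases before the start site are printed for Tbx20, the most abundant factor, for Twist1, the factor with higher values in every adult library, and for Snai1 and Msx1, which hold the letters that Snail factors recognise. Capitals mark matches to the E-box CANNTG, the site of bHLH and Snail proteins, and to the TATA box TATAAA. Each is given 5′ to 3′ on the strand of its gene.
Tbx20, chr9:24774304-24774553, minus strand: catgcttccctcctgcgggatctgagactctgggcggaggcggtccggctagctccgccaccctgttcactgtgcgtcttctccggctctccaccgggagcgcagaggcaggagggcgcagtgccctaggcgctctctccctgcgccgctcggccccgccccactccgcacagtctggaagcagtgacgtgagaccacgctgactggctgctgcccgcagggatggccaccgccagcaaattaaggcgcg
Twist1, chr12:33957421-33957670, plus strand: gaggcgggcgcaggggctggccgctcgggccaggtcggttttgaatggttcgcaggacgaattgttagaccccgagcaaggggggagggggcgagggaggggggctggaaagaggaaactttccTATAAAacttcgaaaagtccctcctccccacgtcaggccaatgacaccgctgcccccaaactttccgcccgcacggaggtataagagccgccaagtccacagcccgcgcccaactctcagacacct
Snai1, chr2:167537945-167538194, plus strand: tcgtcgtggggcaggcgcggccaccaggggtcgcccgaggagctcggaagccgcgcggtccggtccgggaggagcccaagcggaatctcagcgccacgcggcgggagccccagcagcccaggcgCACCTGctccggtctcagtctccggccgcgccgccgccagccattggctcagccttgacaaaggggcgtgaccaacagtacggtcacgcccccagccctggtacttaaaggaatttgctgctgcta
Msx1, chr5:37824586-37824835, minus strand: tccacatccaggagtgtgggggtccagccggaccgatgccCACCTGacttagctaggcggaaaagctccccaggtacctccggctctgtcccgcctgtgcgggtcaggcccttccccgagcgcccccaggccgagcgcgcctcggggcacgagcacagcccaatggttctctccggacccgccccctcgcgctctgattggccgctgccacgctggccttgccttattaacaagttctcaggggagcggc

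In Snai1 and in Msx1 the capitals spell CACCTG, the other strand of CAGGTG, starting at −126 and at −210 from the start site. CAGGTG was found in 20.2% and any E-box CANNTG, of which CAGGTG is a case, in 72.3% of 32851 mouse promoter windows running from 250 bases before to 50 after the start, both strands searched. The E-box of Msx2 is CAGTTG at −79, and the windows of Tbx20, Twist1 and Twist2 hold none. TATAAA stands at −126 in Twist1 and in 13.6% of windows. The 6 windows held 22 to 34 CpG pairs against a median of 7 over all windows, so all were rich in CpG. These are matches of letters in a window, not measured binding.

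**Figure D1:**
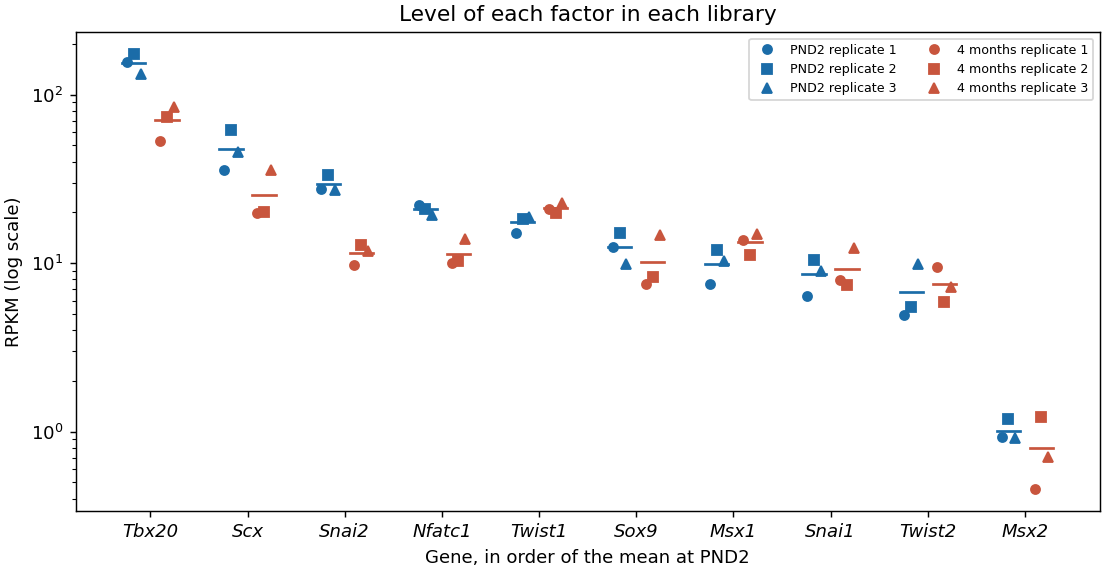
RPKM of each factor (log scale) in each library, genes ordered by their mean at PND2; blue marks PND2, red marks 4 months, symbols give the replicate and bars the mean of 3 libraries. Tbx20 lies above the other factors at both ages, and Msx2 lies below them. The ages separate for Tbx20, Snai2, Nfatc1 and Twist1, and for 50% of all genes tested, in either direction.

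At PND2 the mean levels ran from 154 RPKM for Tbx20 through Scx, Snai2, Nfatc1, Twist1 and Sox9, and the libraries of neighbours in that order did not overlap. Below Sox9 the order was Msx1, Snai1 and Twist2, each overlapping its neighbour, with Msx2 apart at 1.01 RPKM. At 4 months Tbx20 was still first, at 70.4 RPKM. Scx and Twist1 followed with overlapping libraries, then Msx1, Snai2, Nfatc1, Sox9, Snai1 and Twist2, each overlapping the next, and Msx2 was again apart at 0.798 RPKM. Snai2 moved from place 3 to place 5 in that order, Twist1 from 5 to 3 and Msx1 from 7 to 4. Among all genes tested Tbx20 stood at percentile 95.5 at PND2 and 91.1 at 4 months, and Msx2 at 23.6 and 21.7.

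The Snail factors, zinc-finger repressors of epithelial genes, parted between the ages. Snai2 (Slug, ENSMUSG00000022676, mm10 chromosome 16, 14705852 to 14709395, plus strand) measured 27.5, 33.4 and 27.1 RPKM in PND2 replicates 1, 2 and 3, and 9.77, 12.8 and 11.9 at 4 months. Every adult library was below every neonatal one, as in 29.9% of all genes tested. The mean went from 29.4 ± 3.51 to 11.5 ± 1.53 RPKM (SD, n = 3 each), 2.56-fold lower. On the log2 scale it fell by 1.35 (SE 0.14, 95% interval −1.68 to −1.02), with a limma adjusted p of 0.000566, which is −1.21 relative to the median of all genes. Snai2 was called lower under every alternative setting run, with a highest adjusted p of 0.0251. All 3 of its exons were lower without overlap, as were 25.7% of 335276 annotated exons measured across all genes, some of which share bases.

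Snai1 (ENSMUSG00000042821, chromosome 2, 167538195 to 167542814, plus strand) measured 6.39, 10.5 and 8.98 RPKM at PND2 and 7.91, 7.38 and 12.3 at 4 months. The ages overlapped, and the lowest and highest values came from PND2 replicate 1 and 4 months replicate 3. Its log2 fold change was 0.08 (SE 0.25, 95% interval −0.51 to 0.67, limma adjusted p = 0.830), and its sign turned when either of those libraries was left out. Within a library, where scaling cancels, Snai2 was 3.43-fold above Snai1 at PND2 and 1.27-fold above it at 4 months. The log2 ratios were 2.09, 1.66 and 1.58 at PND2 and 0.30, 0.78 and −0.05 at 4 months. All 3 adult ratios were below all 3 neonatal ones, a difference of −1.43 with an exact permutation p of 0.1, 2-sided, the smallest that 3 against 3 libraries can give.

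A list of 12 other genes of the Snail programme, holding repressors, cadherins, junction genes, the matrix gene Fn1 and the filament gene Vim, counted 5 lower and 2 higher, with a median log2 fold change of −0.58. The 5 lower were Cdh2, Cdh5, Cdh11, Fn1 and Cldn5. Of these Cdh5 also stands among the endothelial markers used here, and Cldn5 is an endothelial junction gene. Cdh2, N-cadherin, fell from 76.5 to 22.9 RPKM (log2 fold change −1.82). Cdh1, E-cadherin and a classic Snail target, was measured at 0.213, 0.222 and 0.097 RPKM at PND2 and 0.661, 0.487 and 0.408 at 4 months. It was called higher (log2 fold change 1.17, limma adjusted p = 0.0407) at levels close to the filter on low values. Zeb2, a repressor of the same sites, rose from 6.20 to 9.98 RPKM (log2 fold change 0.68, limma adjusted p = 0.00884). Vim, the intermediate filament of mesenchymal cells and the most abundant gene of the list, averaged 1360 RPKM at PND2 and 1989 at 4 months, and did not pass (limma adjusted p = 0.0563).

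**Figure D2:**
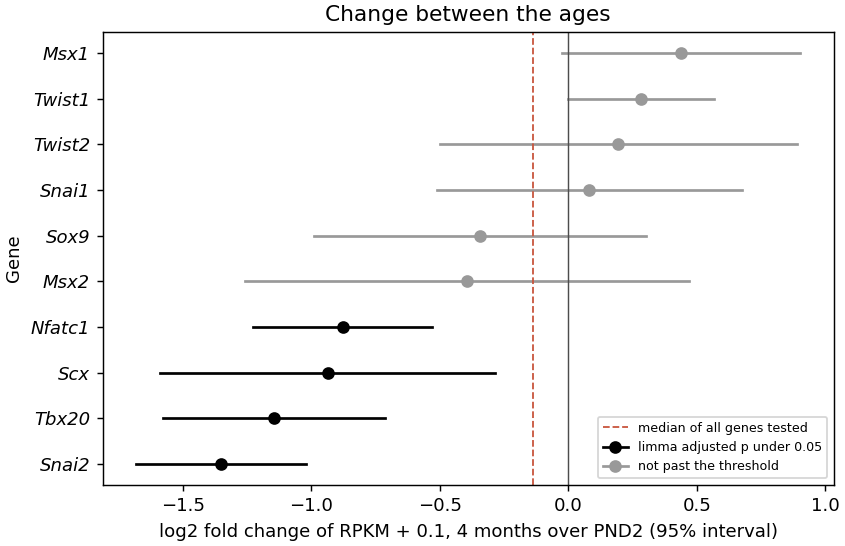
log2 fold change of RPKM + 0.1 at 4 months over PND2 for each factor, with 95% intervals from limma; black points passed an adjusted p of 0.05, grey points did not, and the dashed line is the median of all genes tested, −0.14. The 4 black intervals, those of Snai2, Tbx20, Scx and Nfatc1, lie wholly to the left of that line.

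Among the basic helix-loop-helix factors, Scx and Twist1 went opposite ways in mean. Scx (scleraxis, ENSMUSG00000034161, chromosome 15, 76457438 to 76459468, plus strand), the tendon progenitor factor, measured 35.6, 61.5 and 45.8 RPKM at PND2 and 19.9, 20.0 and 35.7 at 4 months. 4 months replicate 3 reached the lowest neonatal library, so the ages met. The mean was 47.6 ± 13.1 RPKM at PND2 and 25.2 ± 9.11 at 4 months, 1.89-fold lower (log2 fold change −0.94, SE 0.28, 95% interval −1.59 to −0.28, limma adjusted p = 0.0356). The call was lost on leaving out any of 4 libraries, while the log2 fold change stayed negative. It was −0.73 without PND2 replicate 2 (adjusted p = 0.0980), −0.95 without PND2 replicate 3 (0.0862), −0.79 without 4 months replicate 1 (0.100) and −0.80 without 4 months replicate 2 (0.104). The call was also lost with no filter on low values (0.0512), under median scaling (0.0626), without trend (0.0699) and by the per-gene unequal-variance test (0.157). Scx lies within Bop1 on the opposite strand, with no shared exon, and Bop1 ran from 19.5 to 35.0 RPKM over the libraries.

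Twist1 (ENSMUSG00000035799, chromosome 12, 33957671 to 33959817, plus strand), the cushion repressor whose promoter is printed above, measured 15.2, 18.3 and 18.8 RPKM at PND2 and 21.0, 19.7 and 22.9 at 4 months. Every adult library was above every neonatal one, an order that 20% of all genes tested share in that direction. The log2 fold change was 0.28 (SE 0.12, 95% interval −0.000415 to 0.57), with a limma adjusted p of 0.110. It was 0.19 without PND2 replicate 1 (adjusted p = 0.212), the lowest on leaving out a library. In that library exon 1 was at 7.68 RPKM, against 13.4 and 13.7 in PND2 replicates 2 and 3. Exon 2 was at 26.4 there, against 25.6 and 26.5. Every factor had its lowest neonatal first-exon value in PND2 replicate 1, which was lowest of its age for 46.5% of all genes tested. The part of uneven coverage along genes was not tested. Twist1 passed as higher under median scaling (0.40, adjusted p = 0.0278) and quantile normalization (0.37, adjusted p = 0.0349), so its call depends on how libraries are scaled.

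Twist2 (ENSMUSG00000007805, chromosome 1, 91801461 to 91848028, plus strand), a close relative of Twist1 that acts in dermal and craniofacial mesenchyme, measured 4.93, 5.46 and 9.90 RPKM at PND2 and 9.49, 5.89 and 7.21 at 4 months. The ages overlapped fully (log2 fold change 0.20, 95% interval −0.50 to 0.89, limma adjusted p = 0.648). That value was 0.0059 with PND2 replicate 1 left out and 0.50 with PND2 replicate 3 left out. The antisense gene Gm29100, at 1.72 to 4.10 RPKM, overlaps 2 of its 3 annotated exons, and the sources do not say that counting used strand, so reads of these 2 genes cannot be told apart there. In the exon free of overlap the log2 fold change was 0.43 with an adjusted p of 0.204. Twist1 stood 2.67-fold above Twist2 at PND2 and 2.84-fold at 4 months, a log2 difference of 0.09 that was within the spread (exact permutation p = 0.7, 2-sided). Its sign turned without PND2 replicate 3 (−0.16) and without 4 months replicate 2 (−0.02).

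bHLH factors bind DNA in pairs with E proteins, and Id proteins block that pairing. Of 12 E, Id and other mesodermal bHLH genes, 3 were lower and the other 9 did not pass, with a median log2 fold change of −0.37. Tcf3, an E protein, fell from 39.9 to 21.4 RPKM (log2 fold change −0.89), and Tcf12, another, from 23.2 to 16.0. Tcf21, a fibroblast and epicardial factor, fell from 69.8 to 51.3 RPKM. Id3, the most abundant gene of the list, measured 224 RPKM at PND2 and 176 at 4 months and did not pass (limma adjusted p = 0.171).

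Tendon-type genes, the programme tied to Scx, moved in both directions: of 11, 4 were lower and 3 higher, with a median log2 fold change of 0.04. Tnc, tenascin C, fell from 60.0 to 9.38 RPKM (log2 fold change −2.73). Col3a1, the most abundant of the list, fell from 1412 to 824 RPKM, and Col1a1 and Col1a2 fell too. Egr1, a stress-responsive factor that also acts in tendon, rose from 30.0 to 68.6 RPKM (log2 fold change 1.19). Fmod, the tendon proteoglycan fibromodulin, rose from 104 to 225 RPKM, and Mkx, a tendon homeobox factor, rose from 0.366 to 0.929. Tnmd, tenomodulin, a known Scx target, measured 4.81, 5.21 and 2.07 RPKM at PND2 and 0.277, 2.70 and 0.919 at 4 months, overlapping, and did not pass (limma adjusted p = 0.0764).

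Sox9 (ENSMUSG00000000567, chromosome 11, 112782224 to 112787760, plus strand), the HMG-box factor of cartilage and cushion mesenchyme, measured 12.5, 15.2 and 9.85 RPKM at PND2 and 7.54, 8.25 and 14.6 at 4 months. Adult replicates 1 and 2 were below every neonatal library, and adult replicate 3 was above 2 of them. The log2 fold change was −0.34 (SE 0.28, 95% interval −0.99 to 0.30, limma adjusted p = 0.373). On leaving out libraries it ran from −0.16 without 4 months replicate 1 (adjusted p = 0.705) to −0.64 without 4 months replicate 3 (adjusted p = 0.0698), short of the threshold throughout, and was −0.19 without PND2 replicate 2 and −0.23 without 4 months replicate 2. The interval allows a fall to 0.504 or a rise to 1.23 times the neonatal level.

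Cartilage-type genes known as Sox9 targets split widely. Of 12 tested among 14 listed, with Matn1 and Matn3 too low to test, 6 were lower and 3 higher, and the median log2 fold change was −0.72. Col9a2, a chain of collagen IX, went from 15.8 to 0.785 RPKM (log2 fold change −4.61). Acan, the proteoglycan aggrecan, measured 57.2, 129 and 58.2 RPKM at PND2 and 7.36, 10.9 and 16.6 at 4 months. Chad, chondroadherin, rose from 4.43 to 231 RPKM (log2 fold change 5.66). Comp, a matrix glycoprotein of cartilage and tendon and the most abundant of the list, measured 6.95, 13.3 and 11.5 RPKM at PND2 and 179, 308 and 642 at 4 months. The genes that fell and those that rose did so without overlap in these 4 examples.

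4 months replicate 3 stood apart in cartilage-type genes. Col2a1, the main collagen of cartilage, was at 0.464 and 0.756 RPKM in the other adult libraries and at 16.6 in this one. The summed level of the 14 cartilage-type genes, of which Comp was the most abundant, was 324, 563 and 1111 RPKM in adult replicates 1, 2 and 3. The same library had the highest adult value for 7 of the 10 factors, all but Snai2, Twist2 and Msx2, whereas it was highest of its age for 25.4% of all genes tested. PND2 replicate 2, which had the highest neonatal Acan and Col2a1, was highest for 7 factors too, against 34.8% of all genes. The part of these libraries in the factors' values was not tested beyond leaving each of them out.

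Among 7 Sox relatives and partners, 3 were lower and 1 higher, with a median log2 fold change of −0.27. Sox4, a factor of outflow tract cushions and the most abundant of the list, measured 41.2, 42.3 and 59.4 RPKM at PND2 and 9.50, 9.07 and 7.04 at 4 months. Sox11, its close relative, fell from 2.34 to 0.162 RPKM (log2 fold change −3.30), and Sox12, the other SoxC factor, from 21.5 to 3.82. Sox6, a Sox9 partner in cartilage, rose from 1.98 to 4.14 RPKM (log2 fold change 1.05), and Sox5, its usual companion, measured 1.05 and 1.52 RPKM without passing (limma adjusted p = 0.118).

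The Msx homeobox factors, BMP-responsive repressors, kept their order. Msx1 (ENSMUSG00000048450, chromosome 5, 37820485 to 37824583, minus strand) measured 7.48, 11.9 and 10.2 RPKM at PND2 and 13.8, 11.2 and 14.9 at 4 months. Adult replicates 1 and 3 were above every neonatal library, and adult replicate 2 was within their range. The log2 fold change was 0.44 (SE 0.20, 95% interval −0.03 to 0.90, limma adjusted p = 0.127). The log2 fold change was 0.25 without PND2 replicate 1, the lowest on leaving out a library. In that library exon 1 was at 5.99 RPKM, against 13.2 and 11.1 in PND2 replicates 2 and 3, and the last exon at 14.6, against 19.9 and 17.3. Msx1 has 3 annotated exons in 2 separate stretches, all higher in mean and none without overlap.

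Msx2 (ENSMUSG00000021469, chromosome 13, 53466884 to 53473074, minus strand) rested on 56 to 119 reads a library. It measured 0.931, 1.19 and 0.917 RPKM at PND2 and 0.457, 1.23 and 0.706 at 4 months. The highest value of all 6 and the lowest were both adult, and the log2 fold change was −0.39 (95% interval −1.26 to 0.47, limma adjusted p = 0.448). It ran from −0.09 without 4 months replicate 1 to −0.72 without 4 months replicate 2. Its 3 annotated exons form 2 separate stretches, since an exon of 743 bases lies within another of 1569. The longer of that pair was at 0.433 of its neonatal mean, without overlap, on 11 to 51 reads a library, and the separate exon, at 0.961, overlapped between the ages. Msx1 stood 8.87-fold above Msx2 at PND2 and 15.8-fold at 4 months. In log2 units that ratio was 3.15 ± 0.24 and 3.98 ± 0.80 (SD, n = 3 each), a difference of 0.83 with an exact permutation p of 0.3, 2-sided. It was 0.50 without 4 months replicate 1 and 1.28 without 4 months replicate 2.

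Of 18 BMP and TGF-beta signals, receptors and Smads of the cushions, 6 were lower and 4 higher, with a median log2 fold change of −0.21. The called ligands of the BMP branch were lower. Bmp7 went from 12.1 to 0.274 RPKM (log2 fold change −5.00), Bmp4 from 73.4 to 31.2 and Bmp6 from 45.6 to 17.5. Bmp2, an early cushion inducer, measured 9.27 RPKM at PND2 and 14.4 at 4 months and did not pass (limma adjusted p = 0.224). Tgfb2 fell from 46.0 to 24.6 RPKM, whereas Tgfb3, the most abundant of the list, rose from 77.0 to 118. The receptors Tgfbr1, Tgfbr2 and Tgfbr3 all rose, Tgfbr3, a co-receptor needed in the cushion transition, most by fold, from 14.2 to 32.3 RPKM (log2 fold change 1.18).

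**Figure D3:**
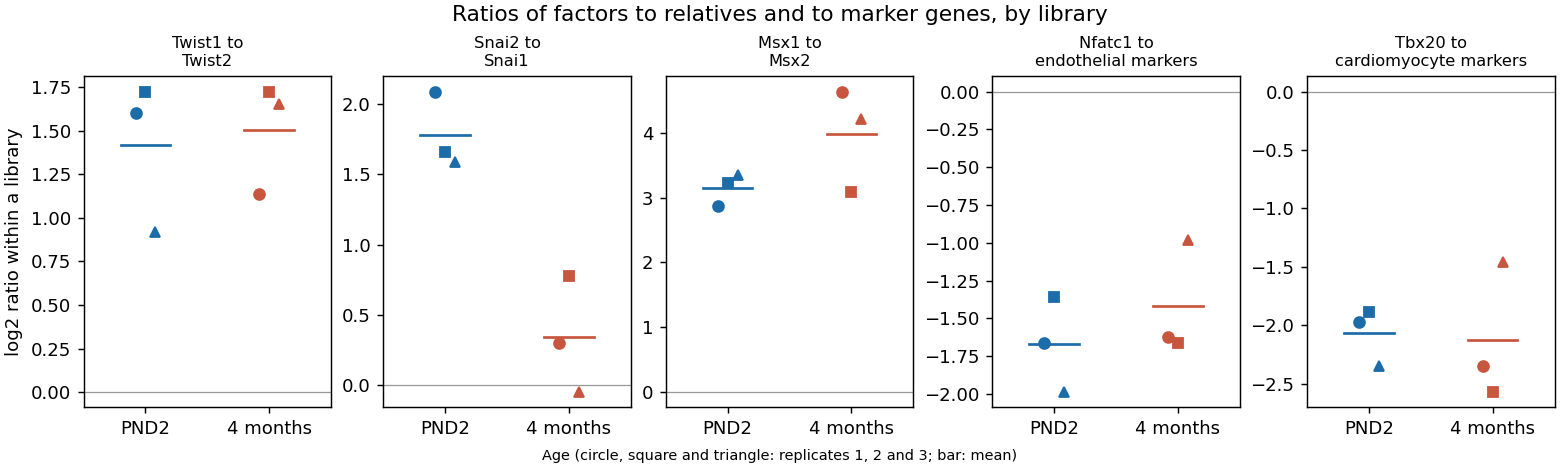
log2 ratio per library of Twist1 to Twist2, Snai2 to Snai1, Msx1 to Msx2, Nfatc1 to 8 endothelial markers and Tbx20 to 10 cardiomyocyte markers. For markers the mean of their log2 values was used. Circle, square and triangle are replicates 1, 2 and 3 and bars are means of 3 libraries, with a separate vertical scale in each panel. Snai2 to Snai1 is the ratio whose ages do not overlap.

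Nfatc1 (ENSMUSG00000033016, chromosome 18, 80606205 to 80713071, minus strand) is switched on by the phosphatase calcineurin and is needed in the endocardium for leaflets to elongate. It measured 22.0, 21.1 and 19.3 RPKM at PND2 and 9.98, 10.3 and 13.8 at 4 months. The ages did not overlap, and the neonatal libraries spread little. The mean was 20.8 ± 1.37 RPKM at PND2 and 11.4 ± 2.14 at 4 months, 1.83-fold lower (log2 fold change −0.88, SE 0.15, 95% interval −1.23 to −0.53, limma adjusted p = 0.00406). Its call was lost by the per-gene unequal-variance test (adjusted p = 0.0781). Of its 13 annotated exons, which form 11 separate stretches because 2 of them lie within others, 12 were lower without overlap. Across all genes 25.7% of annotated exons measured were lower without overlap.

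Endothelial markers moved the same way. All 8 of 8 were lower, with a median log2 fold change of −1.14, and none was at 0 in any library. Pecam1, the most abundant, fell from 114 to 80.2 RPKM and Emcn, endomucin, from 47.9 to 15.8. The summed marker level was 632, 491 and 693 RPKM in the PND2 libraries and 291, 292 and 265 at 4 months. The log2 ratio of Nfatc1 to these markers, taken against the mean of their log2 values, was −1.67 ± 0.31 at PND2 and −1.42 ± 0.38 at 4 months. The ages overlapped in that ratio (difference 0.25, exact permutation p = 0.4, 2-sided). The difference was 0.03 without 4 months replicate 3, 0.09 without PND2 replicate 3 and 0.40 without PND2 replicate 2. In bulk valves, fewer cells of a type and less RNA per cell cannot be told apart, and the part of endothelial content in the Nfatc1 result was not tested.

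The exon of Nfatc1 that went the other way was a start exon, and it was singled out after its values were seen. In the GENCODE M21 annotation Nfatc1 has an upstream first exon of 432 bases, used by 1 coding transcript, and a downstream first exon of 140 bases in the following intron, used by 3. The upstream exon measured 8.96, 14.3 and 11.0 RPKM at PND2 and 3.35, 2.62 and 4.88 at 4 months. The downstream exon measured 2.01, 2.81 and 2.20 RPKM at PND2 and 4.78, 2.1 and 3.95 at 4 months, with the ages overlapping. The upstream to downstream ratio was 4.45, 5.10 and 5.01 in the neonatal libraries and 0.700, 1.25 and 1.24 in the adult ones. The ratio was 4.85 ± 0.353 at PND2 and 1.06 ± 0.313 at 4 months without overlap (log2 difference −2.19, exact permutation p = 0.1, 2-sided, the smallest possible). Because the downstream exon was chosen for its direction, that p restates the choice and adds no support for the difference.

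Few reads stand behind that ratio. The upstream exon held 479 reads summed over the PND2 libraries and 142 over the adult ones, and the downstream exon 32 and 48, or 7 to 25 a library. Leaving out any 1 library kept the log2 difference between −2.33 and −1.92. That range uses the same chosen exon and the same libraries, so it too adds no support. The proximal and distal last exons of Nfatc1 overlapped between the ages in their ratio, which was 0.886 ± 0.100 at PND2 and 1.01 ± 0.336 at 4 months (exact permutation p = 0.8, 2-sided).

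**Figure D4:**
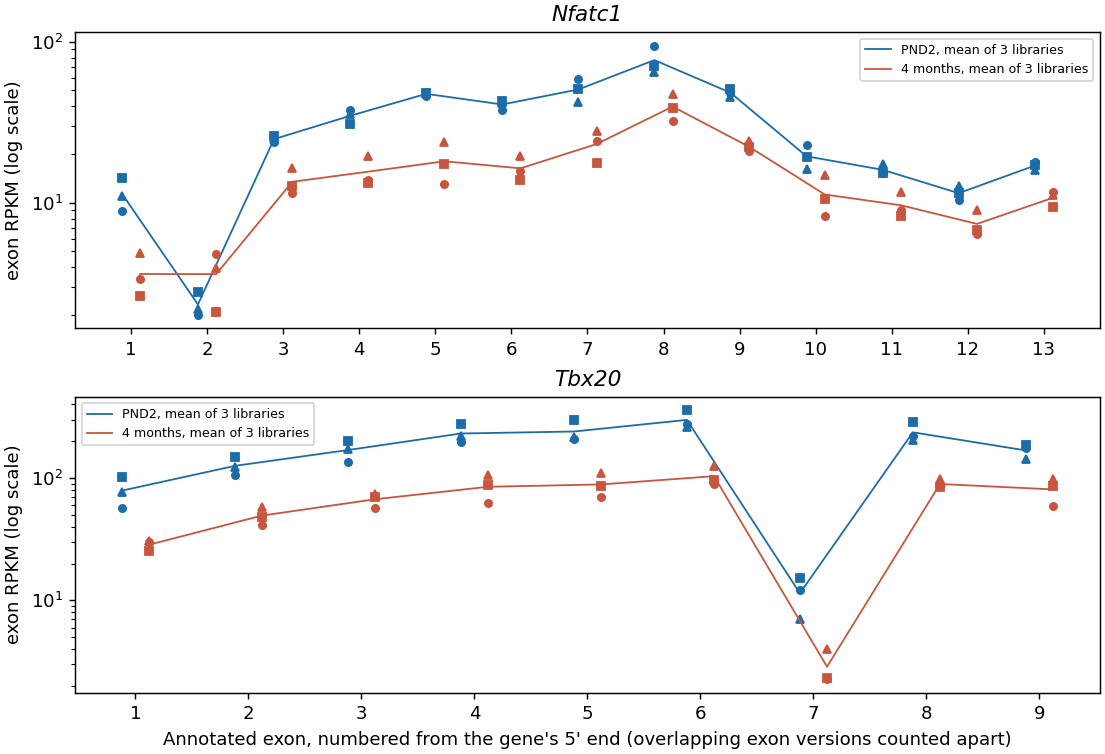
RPKM of each annotated exon (log scale) of Nfatc1 and Tbx20, numbered from the 5′ end; points are libraries (blue PND2, red 4 months, circle, square and triangle for replicates 1, 2 and 3) and lines join the means of 3. Exon 9 of Nfatc1 lies within exon 10 and exon 11 within exon 12. The ages separate in 12 of 13 Nfatc1 exons, with the downstream first exon (number 2) overlapping, and in all 9 Tbx20 exons. Across all genes 25.7% of annotated exons measured were lower without overlap.

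Of 11 other NFAT factors, calcineurin subunits and calcineurin regulators, 2 were lower and 1 higher, with a median log2 fold change of −0.20. Nfatc2 fell from 3.72 to 2.07 RPKM (log2 fold change −0.81), and Ppp3cc, a catalytic subunit, from 21.8 to 14.1. Nfatc3 and Nfatc4, at 20.3 and 23.5 RPKM at PND2, did not pass (limma adjusted p = 0.192 and 0.199). Rcan2, a regulator of calcineurin and the most abundant of the list, measured 66.5, 75.8 and 63.2 RPKM at PND2 and 184, 209 and 167 at 4 months (log2 fold change 1.44).

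Tbx20 (ENSMUSG00000031965, chromosome 9, 24720812 to 24774303, minus strand), the T-box factor of cushions and heart muscle, rested on 12005 to 41600 reads a library. It measured 155, 174 and 133 RPKM at PND2 and 53.3, 73.2 and 84.6 at 4 months. The highest adult library was well below the lowest neonatal one. The mean was 154 ± 20.6 RPKM at PND2 and 70.4 ± 15.8 at 4 months, 2.19-fold lower, and the log2 value fell by 1.14 (SE 0.18, 95% interval −1.58 to −0.71, limma adjusted p = 0.00325). By the per-gene unequal-variance test the call was lost, with an adjusted p of 0.0667. All 9 exons were lower without overlap, at 0.251 to 0.481 of their neonatal means, beside 25.7% of annotated exons measured across all genes. The last exon, of 4981 bases, was at 0.481, and the others were at 0.251 to 0.396. The exon at the lower end of that range is an alternative last exon of 1 annotated coding transcript, at 12.1, 15.2 and 7.09 RPKM at PND2 and 2.27, 2.34 and 4.01 at 4 months.

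Heart muscle RNA also differed between the ages. Of 10 cardiomyocyte markers 5 were lower and the other 5 did not pass, with a median log2 fold change of −1.10 and none at 0 in any library. Their summed level was 12310, 12776 and 13719 RPKM at PND2 and 5969, 8452 and 5484 at 4 months. Myh6, the adult alpha myosin heavy chain and the most abundant on average, measured 3335 and 2164 RPKM (limma adjusted p = 0.0510), and Myh7, the fetal beta chain, fell by 2.07 on the log2 scale. The log2 ratio of Tbx20 to these markers, taken against the mean of their log2 values, was −2.07 ± 0.24 at PND2 and −2.13 ± 0.59 at 4 months. The difference of −0.06 (exact permutation p = 0.9, 2-sided) turned sign when any of 3 libraries was left out. The part of cardiomyocyte RNA in the Tbx20 result was not tested.

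None of 7 other T-box genes was called in either direction by limma, with a median log2 fold change of −0.16. At an unadjusted p under 0.05, 1 of them was lower and 1 higher. Some were low: Tbx15 averaged 0.406 RPKM at PND2 and 0.480 at 4 months, and Tbx4 0.586 and 1.22. Tbx18, an epicardial and sinus factor and the most abundant, measured 18.3, 21.5 and 21.1 RPKM at PND2 and 18.4, 17.6 and 18.4 at 4 months (limma adjusted p = 0.271). Tbx2, a BMP-responsive repressor of cushions, measured 10.7 and 9.14 RPKM and did not pass either (limma adjusted p = 0.354).

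A list of 14 other transcription factors, mostly of embryonic mesenchyme, counted 3 lower and 3 higher, with a median log2 fold change of 0.12. Meox1, a somite and fibroblast factor, measured 79.1, 122 and 88.6 RPKM at PND2 and 22.4, 36.9 and 43.6 at 4 months (log2 fold change −1.52). Sox17 fell from 5.53 to 2.88 RPKM. Prrx2 fell from 11.3 to 6.38 RPKM, whereas its relative Prrx1 rose from 11.0 to 17.9. Foxf1, a factor of splanchnic mesenchyme, rose from 1.03 to 5.67 RPKM (log2 fold change 2.39), and Runx2, the osteoblast factor, from 0.444 to 0.942. Osr1, the most abundant of the list, measured 64.5 and 68.9 RPKM and did not pass (limma adjusted p = 0.857).

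Markers of the cell types in the tissue gave the setting of these values. Of 10 valve interstitial and fibroblast markers, 4 of which also stand in the tendon or Snail lists, 4 were lower and 4 higher, with a median log2 fold change of 0.29. Pdgfra, a defining fibroblast receptor, measured 40.9 RPKM at PND2 and 42.3 at 4 months (limma adjusted p = 0.865). Dcn, decorin and the most abundant of the list, rose from 1054 to 3961 RPKM, and Postn, periostin, fell from 1019 to 520. The summed level was 6596, 7266 and 7037 RPKM at PND2 and 9414, 8182 and 10315 at 4 months.

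Smooth muscle markers were higher in 5 of 6, with a median log2 fold change of 1.42. Acta2, the most abundant, rose from 4677 to 12236 RPKM and Myh11 by 3.47 in log2 units. Macrophage markers were higher in 5 of 6, with a median of 1.17. C1qa, the most abundant, rose from 71.3 to 174 RPKM and Cd163 from 2.45 to 13.0. Adipocyte markers were higher in 4 of 6. Cidec, a lipid droplet gene, and Lep, leptin, had no reads in any PND2 library, and Fabp4, the most abundant, did not pass at 96.3 and 101 RPKM. The adipocyte sum was 125, 448 and 153 RPKM in adult replicates 1, 2 and 3, highest in replicate 2.

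Schwann cell markers were higher in 2 of 6, S100b, the most abundant, rising from 7.25 to 28.8 RPKM, with a median of 0.61. Melanocyte markers were lower in 3 of 6, with a median of −0.71: Pmel fell from 20.6 to 6.43 RPKM, and Dct, the most abundant, did not pass. Mitosis genes were lower in 10 of 10, with a median of −3.02, Cdk1, the most abundant, falling from 15.3 to 0.802 RPKM. The 4 lower factors fell less than that median, and the part of these cell types in the factors' levels was not tested.

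**Figure D5:**
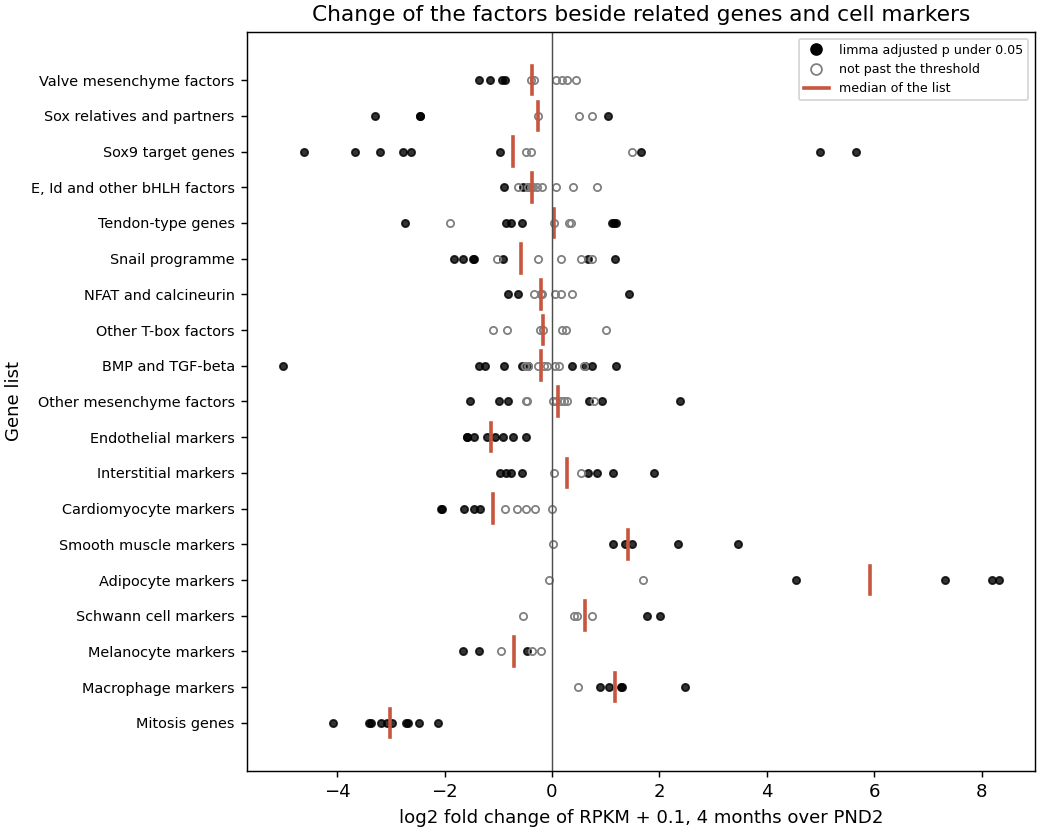
log2 fold change of RPKM + 0.1 at 4 months over PND2 for the 10 factors (top row) and for each list of related genes or cell markers; each circle is a gene, filled where limma's adjusted p was under 0.05, and the red bar is the median of the list. The factors span −1.35 to 0.44, against −4.61 to 5.66 for the Sox9 target genes.

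Profiles over the 6 libraries were compared with 14143 protein-coding genes outside the set with a mean of at least 1 RPKM at either age. The measure was the root mean square difference of centred log2 values, where 0 is the same shape. For Snai2 the nearest were Dot1l, a histone methyltransferase, at 0.0668 and Rai14 at 0.0922, against a median of 0.678 over all candidates. For Nfatc1 they were Tead4, a factor of the Hippo pathway, at 0.0665 and Ctsk, the collagen-cutting cathepsin K, at 0.0726, against a median of 0.492. The nearest to Tbx20 were Wee1, a kinase that holds back mitosis, and Chtf18, both at 0.115, and to Scx Prr7 and Nfkbid, at 0.139 and 0.150.

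Twist1 was nearest to Slc4a2 and Tsc2, at 0.0384 and 0.0413, and Msx1 to Naglu and Rfng, both at 0.0541 or 0.0542. Sox9 came nearest to Ociad2 at 0.0862 and Pappa2 at 0.121, Snai1 to Kctd15 at 0.0819 and Tnfaip6 at 0.0974. Twist2 was nearest to Pcgf1 and Ripply3, and Msx2 to Homer2 and Fam134b, at 0.117 to 0.157. No factor was among the candidates, and the points of each comparison are the same 6 libraries.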

How the data were processed

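Total RNA from pooled aortic valves was sequenced with a stranded mRNA kit. Per the methods, the authors aligned filtered reads with TopHat 2.1.0 to the mouse build mm10, and easyRNASeq under R 3.2.2 assigned them to Ensembl features. The values the authors deposited are RPKM per gene and per exon, and the stated read minimum and floor were not applied in them. Whether counting used strand is not given in the sources used here. Each library total was inferred from the smallest product of exon RPKM and length, taken as 1 read. With these inferred totals, 100% of gene values came out as whole reads within 0.001. Reads summed over genes were 2.31 to 2.36 times the inferred totals, so read numbers are relative. Mitochondrial genes held 5.44 to 9.60% of them.

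Fold changes, intervals and p-values came from limma 3.58.1 (R 4.3.3, eBayes with trend, 2-sided) on log2(RPKM + 0.1), which understates the change of low genes. Genes needed an RPKM of at least 0.1 in 3 libraries. Ratios were compared by exact permutation over libraries. Other steps used data.table (version 1.17.8) in R and Python 3.11.15 with scipy 1.17.1, pandas 2.3.3, matplotlib 3.10.9 and numpy 2.4.6. On simulated data limma found 97.5% of 200 planted 4-fold changes among 25903 genes, with 19 false calls. Changes were planted only in genes with a mean above 1 RPKM, and the same spread was set for every gene. The factors changed by less than 4-fold and differed in spread, so that share does not carry over to them. Replicates are labelled biological, and how mice were assigned to pools is not given in the sources used here.

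The factors and the 18 other gene lists were chosen with earlier results of these data known. Named by rule were all 10 factors, from each list the largest called rise and fall and the most abundant gene, and for each factor the 2 nearest profiles. Other named genes were chosen after their values were seen. Alternatives were pseudocounts of 1 and 0.01, no filter or an RPKM of at least 1, no trend, median scaling, quantile normalization, voom on recovered reads, a per-gene unequal-variance test, a replicate block, other thresholds, exons free of overlap and each library left out. Those for the Nfatc1 start exons were added after the data were seen.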

Additional observations from a re-analysis of the deposited data

How the results depend on the processing

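Lower factors numbered 4 in the reported fit, 1 by the per-gene unequal-variance test (Snai2, with adjusted p-values of 0.0667 for Tbx20, 0.0781 for Nfatc1 and 0.157 for Scx) and 2 with a fold over 2 also required. Higher factors numbered 1, Twist1, under median scaling and under quantile normalization, and 0 in the other settings run. Genes called among all tested numbered 9273, 3408 by the unequal-variance test and 4452 with a fold over 2 required. Leaving out each library gave 3 to 4 lower factors, 0 higher and 6447 to 8688 genes called. Scx was the factor lost in those fits, and without trend its adjusted p was 0.0699. Every leave-one-out fit kept at least 2 libraries an age.

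Snai1 ran from −0.14 to 0.24 on leaving out libraries and turned to −0.12 without PND2 replicate 1 and to −0.14 without 4 months replicate 3. The difference in the log2 ratio of Twist1 to Twist2 ran from −0.16 to 0.27 on leaving out libraries, being −0.16 without PND2 replicate 3 and −0.02 without 4 months replicate 2. That of Tbx20 to cardiomyocyte markers ran from −0.39 to 0.16, being 0.03 without PND2 replicate 2, 0.05 without 4 months replicate 1 and 0.16 without 4 months replicate 2. Snai2 to Snai1 stayed between −1.65 and −1.24, Msx1 to Msx2 between 0.50 and 1.28 and Nfatc1 to endothelial markers between 0.03 and 0.40. The Nfatc1 start exon difference was −1.86 with a pseudocount of 1 and −2.23 with 0.01, for an exon chosen for its direction, so these values add no support. The causes were not tested.

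Deviations from the mean of each age correlated over genes at 0.04, −0.06 and −0.16 between same-numbered libraries. Between differently numbered ones they correlated at −0.18 to 0.23. With 3 libraries an age, these values cannot show whether the numbers mark a pairing. With a replicate block 4 factors were lower, 0 higher, and 7167 genes were called. A block cannot change a difference of means in this balanced design, so it says nothing about the ratios. The filter at an RPKM of 1 removed Msx2, whose 56 to 119 reads limit its precision.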
